A study of Mus musculus with 18 samples.

Results

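Interferon-induced transmembrane proteins are small membrane proteins that restrict the entry of enveloped viruses into cells. *Ifitm1*, *Ifitm2*, *Ifitm3* and *Ifitm6* were selected on their values in these data, namely their level (CPM, counts scaled to library size) in each of the 18 libraries, the difference of each stimulus from unstimulated cells and the interaction of IFN-γ with *E. coli*. The 4 genes were among 54232 genes listed in every file, and 7 Ifitm genes are annotated in the mouse. The values that chose them are therefore given as a description, without a test, and so are the differences between stimulated groups, which follow from the same values.

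Mouse eosinophils were cultured with *E. coli*, IFN-γ, both together or IL-4, and RNA was counted in 3 libraries per group. The question was how eosinophils respond to type 1 and type 2 stimuli. Eosinophils were taken from the peritoneal cavity of C57BL/6 NJ.1638 *Il5* transgenic mice by removing cells that carried Thy1.2 or B220, so every group, unstimulated cells included, came from animals with excess IL-5. In DMEM with fetal calf serum, stimulated cells were kept for 18 h with 100 ng/ml IL-4, with 50 ng/ml IFN-γ, with heat-inactivated *E. coli*, or with the latter pair combined; how long unstimulated cells were kept was not given. Age, sex and number of mice were not given. Unstimulated libraries a, b and c were grouped with the 9 bacterial and IFN-γ libraries, and unstimulated d, e and f with the IL-4 libraries. This grouping follows the layout of the deposited counts, since the sample titles do not tie the letters to a stimulus. Libraries were made by CEL-Seq2, which reads the 3′ ends of transcripts.

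IFITM proteins sit in the plasma membrane and in endosomes, where they hinder the fusion of viral and cellular membranes. Several of their genes are induced by type I, type II and type III interferons. In leukocytes they are part of the constitutive as well as the induced antiviral state.

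The 12 libraries of the bacterial and IFN-γ experiment held 1523808 to 2734041 gene counts, and the 6 libraries of the IL-4 experiment 3625036 to 6482289. A count of 3, taken as the smallest told from 0, was worth 1.10 to 1.97 CPM in the 12 libraries and 0.463 to 0.828 CPM in the 6 libraries. Floors and intervals cover counting error only. In each of the 12 libraries the highest gene held at least 4089 counts, and none reached the number of sequences that a molecular identifier of 6 bases can have. This ceiling is the one that collapsing reads by such an identifier gives, although the sources used here do not state that step. *Ifitm1* reached 81.3% to 95.1% of the ceiling with *E. coli* and 71.8% to 85.6% with both stimuli, and *Ifitm3* lay between 52.4% and 71.9% unstimulated and between 65.9% and 73.9% with *E. coli*. Values of these genes are therefore also given from corrected counts, an alternative chosen after seeing the data that assumes equally likely identifiers. *Ifitm2* stayed at or below 11.9% of the ceiling and *Ifitm6* at or below 0.635%. The 6 libraries had no such ceiling, with 103 to 229 genes above it, so levels are not compared between the sets, except in the alternative with all 6 unstimulated libraries as 1 group, which mixes both kinds of library and is read with that limit.

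The cells were checked against marker genes fixed by name. All 8 eosinophil markers were above 3 counts in some library of both sets, with a summed level of 4296 ± 700.4 CPM (mean ± SD, n = 3) in unstimulated a to c and 5387 ± 449 CPM in unstimulated d to f. *Ccr3*, the eotaxin receptor, and *Alox15* made up most of it (1431 and 1619.8 CPM in unstimulated a to c, 2149 and 2402 CPM in d to f), while the granule gene *Epx*, encoding eosinophil peroxidase, was at 1.43 and 1.62 CPM. IL-4 libraries had an eosinophil sum of 4890.2 ± 80.7 CPM, against 5387 CPM in unstimulated d to f of their own set. With *E. coli* the eosinophil sum was 3312 ± 246 CPM, while IFN-γ gave 4038 ± 419 and the combination 3078 ± 193 CPM. In the 12 libraries *Ccr3* reached up to 87.3% and *Alox15* up to 91.1% of the ceiling, so these sums are compressed; from corrected counts they were 6100 unstimulated, 4484 with *E. coli*, 4906 for IFN-γ and 3226 CPM for the combination. Of the markers further from the ceiling, *Siglecf* was at 1020, 636, 626 and 348 CPM and *Il5ra* at 179, 70.7, 139 and 74.1 CPM in the same order. *Ccl24* went the other way with IFN-γ, alone or combined, at 12.3, 12.004, 19.2 and 35.6 CPM.

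Among other cell types, monocyte and macrophage markers summed to 2510.2 CPM in unstimulated a to c and 23716 CPM in unstimulated d to f, most of it *Ly6c2* (1919.8 and 23019 CPM). In unstimulated a to c *Ly6c2* lay at 98.4% to 99.7% of the ceiling, so its level there is capped and follows depth, and the sums of the sets are not comparable. In unstimulated d to f *Csf1r* was at 418 CPM, *Marco* at 195, *Timd4* at 61.3 and *Gata6* at 10.8 CPM. *Mertk* was at 6.97 CPM there, *Ccr2* at 3.95, *Cd163* at 1.07 and *Cx3cr1* at 0.203 CPM. The paper reports a purity check by flow cytometry and describes the contaminating cells as mainly lymphocytes. Neutrophil markers summed to 635 and 1885 CPM, of which *Retnlg* made up 584 and 1855 CPM, while the defining granule genes *Camp*, *Ltf*, *Ngp* and *Elane* stayed at or below 1.97 CPM in every group. B cell markers, led by *Cd79a*, summed to 77.7 CPM in unstimulated a to c, 25.4 with *E. coli*, 32.0 with IFN-γ alone and 63.0 in the combination. Mast cell markers, mostly *Tpsb2* and *Cma1*, stood at 8.45, 17.01, 19.2 and 57.5 CPM in the same order. The *E. coli* mean rested on *E. coli* 3, at 34.6 CPM against 9.79 and 6.69 CPM in *E. coli* 1 and 2. T cell sums ranged from 3.34 to 6.12 CPM and dendritic cell sums from 4.21 to 12.2 CPM over the 6 groups. The NK cell marker *Klrb1c* was at 0 in every library and the mesothelial marker *Krt19* at 0 in the 12 libraries. In bulk RNA, fewer cells of a type and less RNA per cell cannot be told apart.

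The 4 genes lie within 63088 bases of chromosome 7 (GRCm38, chr7:140954837-141017924). *Ifitm2* (ENSMUSG00000060591), a protein of late endosomes, spans chr7:140954837-140955987 on the minus strand. *Ifitm1* (ENSMUSG00000025491), found mainly at the cell surface, spans chr7:140967221-140969825 on the plus strand. *Ifitm3* (ENSMUSG00000025492), the member best known for restricting influenza A virus in endosomes, spans chr7:141009586-141010770 on the minus strand. *Ifitm6* (ENSMUSG00000059108), a less studied member, spans chr7:141015699-141017924 on the minus strand. All 4 are protein coding, and all 4 passed the filter on low counts in both sets.

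**Figure D1:**
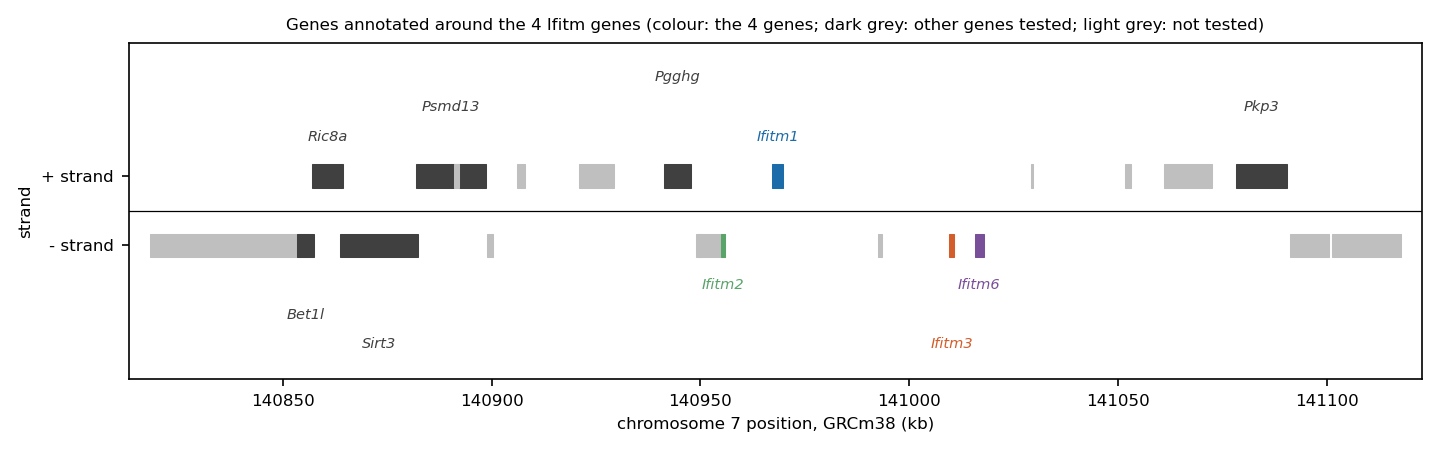
Genes annotated on chromosome 7 (GRCm38, position in kb) within 100 kb of the 4 Ifitm genes, drawn to scale as boxes on the strand they lie on. The 4 genes are coloured, the 6 other genes tested are dark grey and named, and genes with too few counts to test are light grey; *Ifitm1* alone among the 4 lies on the plus strand.

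The family also holds *Ifitm5*, a gene of bone-forming cells, *Ifitm7* and *Ifitm10*. *Ifitm5* had 8 counts and *Ifitm7* 3 counts in the 18 libraries together. *Ifitm10* had 192 counts, with at most 44 in a library, and could be tested only in the 6 libraries, where its log2 fold change with IL-4 was 1.41 ± 0.54 (standard error) and did not pass (edgeR quasi-likelihood test, Benjamini-Hochberg adjusted p = 0.136). Counts of *Ifitm2* carry an uncertainty, since 268 of its 655 exon bases are shared with *Gm45717* on the same strand, which itself had 0 counts, and transcripts elsewhere match *Ifitm2* closely, *Gm11951* over 432 bases and *Gm8865* at 95.6% over 429 bases. *Ifitm1* has a near-identical copy too, *Gm7676*, at 97.5% over 319 bases, with 0 and 6 counts in the 2 sets. No such copy was found for *Ifitm3* or *Ifitm6*.

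*Ifitm1* varied most with the stimuli of the 12 libraries. In unstimulated a, b and c it stood at 82.0, 124 and 99.5 CPM (scaled by the trimmed mean of M values, TMM), and with *E. coli* at 1506, 1302 and 1644 CPM. With IFN-γ it stood at 466, 634 and 664 CPM, and with IFN-γ and *E. coli* at 2148, 1921 and 2162 CPM. Every stimulated library thus lay above every unstimulated library, and the 4 groups did not overlap. The group means fell in the order both (2077 ± 135), *E. coli* (1484 ± 172), IFN-γ (588 ± 106) and unstimulated (101.7 ± 20.9 CPM). From corrected counts the order of the means was the same, at 3211, 2871, 522 and 79.7 CPM, but the libraries with both stimuli overlapped those with *E. coli* alone.

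*Ifitm1* behaved differently in the IL-4 experiment. Unstimulated d, e and f held 124, 226 and 109.9 CPM, and the IL-4 libraries 73.8, 76.1 and 63.0 CPM. The IL-4 libraries lay below all 3 unstimulated ones, which were themselves spread widely by unstimulated e. That library also stood apart across all genes, with a chi-square per gene of 23.7 and 22.0 against unstimulated d and f, which differed from each other by 7.86; its part in the *Ifitm1* values is given by the fits without it.

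*Ifitm2* was higher with *E. coli*, alone or with IFN-γ, and its libraries overlapped between the other groups of the 12. Unstimulated a, b and c held 60.7, 55.1 and 52.4 CPM and the *E. coli* libraries 158, 163.5 and 225 CPM. With IFN-γ the values were 54.9, 47.7 and 56.9 CPM, and with both stimuli 171, 220.3 and 217 CPM. The groups formed a high pair and a low pair: both stimuli (203 ± 27.6) overlapped *E. coli* (182 ± 37.0), and unstimulated (56.1 ± 4.23) overlapped IFN-γ (53.1 ± 4.84 CPM), with no library of the low pair reaching the high pair. With IL-4 it stood at 60.1, 60.6 and 70.5 CPM against 73.0, 102.4 and 86.5 CPM in unstimulated d, e and f, so the groups lay close but did not overlap.

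*Ifitm3* was abundant in every library and varied least. Unstimulated a, b and c held 1097, 1360.1 and 1096 CPM, the *E. coli* libraries 1102, 1011 and 1393 CPM, and the IFN-γ libraries 1019, 1035 and 1161 CPM. These 3 groups overlapped, with means of 1184 ± 152, 1169 ± 199.6 and 1072 ± 77.8 CPM. With both stimuli the libraries held 1799, 1684 and 1893 CPM (1792 ± 105), above every other library of the set. From corrected counts the means were 1429.5 unstimulated and 1515 with *E. coli*, against 1101 with IFN-γ alone and 2346 for the combination, and the IFN-γ libraries then lay below the unstimulated and the *E. coli* libraries without overlap. In the IL-4 experiment unstimulated d, e and f held 1339, 1294 and 1538 CPM and the IL-4 libraries 1746, 1539.7 and 2048 CPM, so the lowest IL-4 library only just exceeded the highest unstimulated one.

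*Ifitm6* was the scarcest of the 4. Unstimulated a, b and c held 26, 13 and 19 counts (9.69, 8.24 and 7.85 CPM), and the *E. coli* libraries 15, 19 and 17 counts (6.12, 6.35 and 8.39 CPM). The IFN-γ libraries held only 1, 4 and 1 counts (0.560, 2.05 and 0.654 CPM), and those with both stimuli 7, 14 and 9 counts (5.11, 7.67 and 5.94 CPM). IFN-γ alone thus stood apart from the other 3 groups, whose neighbours in the order unstimulated (8.59 ± 0.970), *E. coli* (6.96 ± 1.25) and both (6.24 ± 1.31 CPM) overlapped. Of the IFN-γ libraries, 1 and 3 were below 3 counts. With IL-4 the libraries held 16, 14 and 9 counts (3.04, 2.33 and 2.33 CPM) against 49, 85 and 77 counts (13.6, 14.1 and 14.5 CPM) in unstimulated d, e and f. The IL-4 libraries all lay far below the unstimulated ones, which were close to each other.

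**Figure D2:**
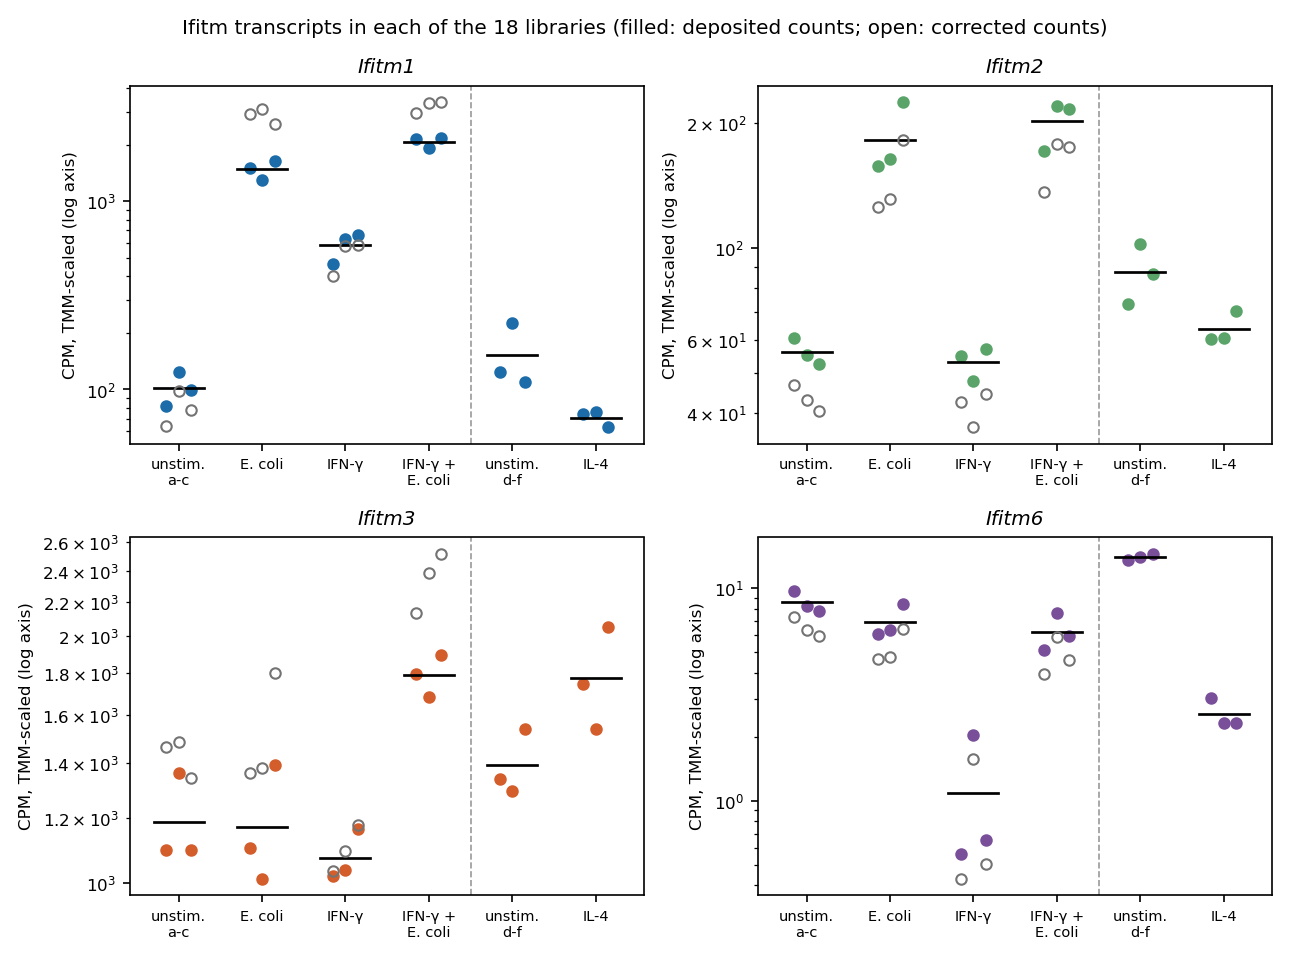
Level of each gene in each of the 18 libraries (CPM, TMM-scaled, log axis), by group, with the dashed line between the 12 and the 6 libraries; filled points are deposited counts, open points corrected counts, and black bars the mean of the deposited values. *Ifitm1* ranges from 82.0 to 2162 CPM over the 12 libraries, while *Ifitm3* stays between 1011 and 1893 CPM and *Ifitm6* is at 2.05 CPM or less with IFN-γ and at 3.04 CPM or less with IL-4.

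Between genes, levels were compared per kilobase of exon; since CEL-Seq2 reads 3′ ends, plain counts are given beside them. In unstimulated a to c, the CPM per kilobase was 1747 for *Ifitm3*, 93.0 for *Ifitm1*, 85.7 for *Ifitm2* and 9.49 for *Ifitm6*. With *E. coli* it was 1724 for *Ifitm3*, 1356 for *Ifitm1*, 278 for *Ifitm2* and 7.69 for *Ifitm6*. *Ifitm3* therefore led on this scale in both groups, and *Ifitm1* drew near to it. In plain CPM *Ifitm3* led in unstimulated a to c, at 1184 against 101.7 for *Ifitm1*. With *E. coli* that order turned, with *Ifitm1* at 1484 and *Ifitm3* at 1169 CPM. Summed over the 4 genes, the family made up 1351 ± 169.9 CPM unstimulated and 2842 ± 398 with *E. coli*; IFN-γ gave 1714 ± 171 and the combination 4078 ± 225, against 1645 ± 99.8 in unstimulated d to f and 1915 ± 254 CPM with IL-4. From corrected counts the sums of the 12 libraries were 1559 unstimulated, 4537 with *E. coli*, 1666 for IFN-γ and 5724 CPM for the combination.

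The makeup of the family changed from nearly all *Ifitm3* to a mixture with *Ifitm1*. *Ifitm1* made up 7.49% ± 0.806 of the 4 genes' counts in unstimulated a to c, 34.1% ± 3.44 with IFN-γ, 52.3% ± 2.03 with *E. coli* and 50.9% ± 1.04 with both. *Ifitm3* made up 87.7% ± 0.340, 62.7% ± 3.08, 41.0% ± 1.45 and 43.9% ± 0.309 in the same groups. Which of these genes held the larger share with *E. coli* depended on the scale: per kilobase *Ifitm1* held 40.4% and *Ifitm3* 51.1%, whereas from corrected counts per kilobase *Ifitm1* held 51.7% and *Ifitm3* 43.8%. That order of the means rested on *E. coli* 1 and 2, since in *E. coli* 3 *Ifitm1* held 44.6% and *Ifitm3* 50.1% on the same scale. With both stimuli *Ifitm3* led per kilobase on deposited counts (54.4% against 39.1%) and on corrected counts, where *Ifitm1* held 44.2%. *Ifitm2* stayed between 3.12% and 6.38% of the counts and *Ifitm6* between 0.0635% and 0.857% in the means of all 6 groups. With IL-4 the family turned further to *Ifitm3*, 92.7% ± 1.03 against 84.5% ± 4.72 in unstimulated d to f, while *Ifitm1* made up 3.78% ± 0.833 against 9.37% ± 3.93.

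**Figure D3:**
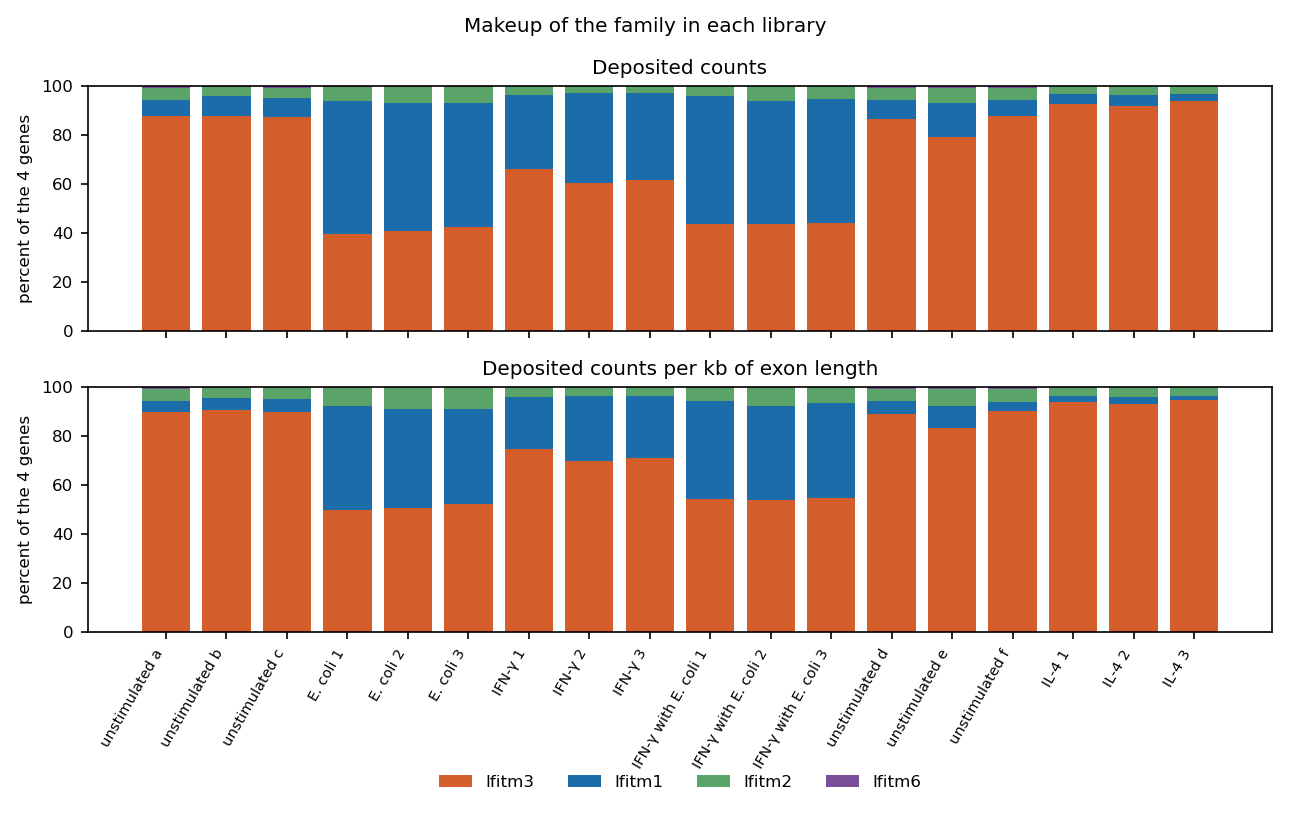
Share of each gene in the summed counts of the 4 genes (percent, stacked bars), 1 bar per library, from deposited counts (top) and from deposited counts per kilobase of exon (bottom). *Ifitm3* makes up 87.3% to 87.9% of the counts in unstimulated a to c and 39.8% to 42.6% with *E. coli*, where *Ifitm1* makes up 50.3% to 54.3%; *Ifitm6* is too scarce to be seen in most bars.

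The comparison of *E. coli* with unstimulated cells asked how eosinophils respond to bacteria alone. *Ifitm1* stood 14.7-fold higher (log2 fold change 3.88 ± 0.17, standard error from the fit, n = 3 against 3), or 36.4-fold from corrected counts (5.18 ± 0.18). *Ifitm2* stood 3.22-fold higher (1.69 ± 0.15). *Ifitm3* was at −0.02 ± 0.13, with the sign turning to 0.08 ± 0.12 from corrected counts, and *Ifitm6* at −0.33 ± 0.30. The groups did not overlap in 2 of the 4 genes, *Ifitm1* and *Ifitm2*, beside 45.3% of all 9883 genes tested. With all 6 unstimulated libraries as 1 group *Ifitm3* was at −0.36 and *Ifitm6* at −0.98.

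Markers of other cells differed beside *Ifitm1* and *Ifitm2*. The neutrophil sum was 635 CPM unstimulated, 484 with *E. coli* and 604 with IFN-γ added, with *Retnlg* at 584, 287 and 312 CPM. Other neutrophil markers stood higher than unstimulated in both groups or in one of them: *S100a8* was at 8.58, 72.1 and 55.1 CPM, *Mmp8* at 9.90, 29.7 and 204 CPM, *Cxcr2* at 26.2, 88.5 and 16.1 CPM and *Ly6g* at 4.12, 3.41 and 13.9 CPM. Of the macrophage markers *Marco* was at 163, 50.1 and 408 CPM, *Mertk* at 5.93, 2.75 and 19.7 and *Timd4* at 28.1, 9.43 and 27.6 CPM. *Csf1r* and *Gata6* differed little with *E. coli* (379, 387 and 396 CPM, and 4.91, 4.69 and 6.06 CPM). *Ccr2* was higher in both groups, at 7.85, 11.6 and 13.8 CPM. The part of such cells in the *Ifitm1* and *Ifitm2* values was not tested.

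Other genes were called at an adjusted p under 0.05, as 30.2% of all genes were with *E. coli*; p-values measure only the spread between these samples, which may be technical. Of 26 other interferon-induced antiviral effectors 16 fell, 1 rose and 9 did not pass, with a median log2 fold change of −0.53 against −0.02 over all genes. *Ifit2*, an inhibitor of viral translation, fell by 1.77 ± 0.19 on the log2 scale and *Mx1*, an interferon-induced GTPase, by 1.65 ± 0.20. *Ch25h*, which makes an antiviral oxysterol, rose by 1.24 ± 0.33, to 76.8 ± 41.0 CPM with *E. coli*. Leaving out 1 library took the change in *Ch25h* to as little as 0.75. Counts of *Mx1* are uncertain, as *Mx2* matches it at 95.3% over 843 bases and held 653 counts in the 12 libraries; *Samhd1*, *Apobec3* and *Nedd4* also share stretches with other expressed genes. Of 12 interferon receptor and signalling genes 2 rose, 5 fell and 5 did not pass (median −0.02); the transcription factor *Irf1* fell (−0.76 ± 0.10) and the inhibitor *Socs1* rose (0.77 ± 0.12). Of 11 genes of LPS sensing and NF-κB, 7 rose and 4 did not pass (median 0.77), among them the cytokines *Il1b* (3.32 ± 0.22) and *Tnf* (2.51 ± 0.20) and the regulator *Nfkbiz* (2.35 ± 0.15). Of 8 genes whose proteins bind or modify IFITM proteins, 2 rose, 1 fell and 5 did not pass (median 0.27): *Nedd4*, a ubiquitin ligase that acts on IFITM3, rose by 0.97 ± 0.13 and *Setd7*, a methyltransferase of IFITM3, fell by 0.80 ± 0.15; the other gene that rose, *Vapa* (0.36 ± 0.12), did not pass without unstimulated a (0.36), unstimulated b (0.34) or *E. coli* 3 (0.33), nor with all 6 unstimulated libraries as 1 group (−0.00246). Of 7 IL-4 signalling genes 5 rose, 1 fell and 1 did not pass (median 0.66), with *Il4ra* at 1.10 ± 0.11.

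IFN-γ against unstimulated cells asked for the response to the interferon alone. Here the 4 genes parted: *Ifitm1* stood 5.83-fold higher (2.54 ± 0.16), whereas *Ifitm6* stood 7.27-fold lower (−2.86 ± 0.46, or −3.68 without IFN-γ 2, which held 4 of its 6 counts). *Ifitm2* was at −0.09 ± 0.17 and *Ifitm3* at −0.14 ± 0.13, the latter at −0.38 ± 0.12 from corrected counts; with all 6 unstimulated libraries as 1 group they were at −0.67 and −0.46. The groups did not overlap in 2 of the 4 genes, *Ifitm1* and *Ifitm6*, beside 45.7% of all genes. For *Ifitm6*, 58 counts summed over the unstimulated libraries against 6 with IFN-γ gave a ratio of 7.62 with a 95% counting interval of 3.30 to 21.6. Beside it, neutrophil markers summed to 599, 720.0 and 585 CPM unstimulated and 717, 681 and 780.2 CPM with IFN-γ, most of it *Retnlg*, while *S100a8* was at 8.58 and 39.2 CPM, *Mmp8* at 9.90 and 38.0, *Ly6g* at 4.12 and 21.7, *S100a9* at 1.15 and 3.84 and, in the other direction, *Cxcr2* at 26.2 and 7.78 CPM. Among monocyte and macrophage markers, *Ly6c2* was capped in both groups, while *Marco* was at 163 and 334 CPM, *Mertk* at 5.93 and 16.7 and *Gata6* at 4.91 and 1.51 CPM. B cell markers summed to 88.7, 91.3 and 53.3 against 38.1, 29.2 and 28.8 CPM. The part of such cells in the *Ifitm6* values was not tested.

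With IFN-γ, where 31.6% of all genes were called, 5 of the 12 interferon signalling genes rose and 7 did not pass (median 0.23 against −0.03 over all genes). *Irf1* rose by 2.08 ± 0.10 (edgeR quasi-likelihood test, Benjamini-Hochberg adjusted p = 2.47e-11; means of 312 and 1320.0 CPM) and *Socs1* by 1.34 ± 0.12. Of the 26 antiviral effectors 7 rose, 4 fell and 15 did not pass (median 0.03), *Ifit2* rising by 0.98 ± 0.17 and *Oas1a*, a sensor of double-stranded RNA, falling by 0.80 ± 0.17. *Samhd1*, which depletes nucleotides, rose by 0.66 ± 0.13, or 1.32 from corrected counts, as it reached 3821 counts in a library. With all 6 unstimulated libraries as 1 group *Oas1a* (−0.44), *Samhd1* (0.23) and, of the partners, *Vapa* (0.11) did not pass. Of the 8 IFITM partners and modifiers 2 rose and 6 did not pass (median 0.07), *Vapa*, a membrane contact protein that binds IFITM3, by 0.46 ± 0.12 and *Fyn* by 0.95 ± 0.32, the latter not without unstimulated b (0.74), unstimulated c (0.99), IFN-γ 1 (0.75) or IFN-γ 3 (0.98). Of the 11 LPS and NF-κB genes 5 rose, 1 fell and 5 did not pass (median 0.42), and of the 7 IL-4 signalling genes 4 rose and 3 did not pass (median 0.49), *Il13ra1* by 3.38 ± 0.24.

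IFN-γ together with *E. coli* against unstimulated cells asked for the combined response. *Ifitm1* stood 20.6-fold higher (4.37 ± 0.17; 40.7-fold and 5.35 ± 0.18 from corrected counts), *Ifitm2* 3.61-fold higher (1.85 ± 0.15) and *Ifitm3* 1.51-fold higher (0.60 ± 0.13). *Ifitm6* was at −0.44 ± 0.33. With all 6 unstimulated libraries as 1 group *Ifitm3* was at 0.30 and *Ifitm6* at −1.07. The groups did not overlap in any of the 4 genes, beside 54.1% of all genes. For *Ifitm6*, 58 summed counts unstimulated against 30 gave a ratio of 1.36 (counting interval 0.863 to 2.19).

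With both stimuli 49% of all genes were called. Of the 26 antiviral effectors 10 rose, 8 fell and 8 did not pass (median 0.10 against −0.04), with *Trim25*, a ubiquitin ligase of RNA sensing, at 0.92 ± 0.14 and *Oas3* at −0.69 ± 0.12; with all 6 unstimulated libraries as 1 group *Trim25* (0.52) and *Oas3* (−0.10) did not pass, nor did the partner *Vapa* (0.20). *Ifit3* and *Oas1a* fell as well, but have near-identical copies in *Ifit3b* and *Oas1g*, so their counts are uncertain. Of the 12 signalling genes 7 rose, 2 fell and 3 did not pass (median 0.41), led by *Irf1* (2.04 ± 0.10). Of the 8 partners and modifiers 5 rose, 1 fell and 2 did not pass (median 0.42); *Vapa* rose by 0.52 ± 0.12, *Fyn*, a kinase that phosphorylates IFITM3, by 1.03 ± 0.32, and *Setd7* fell by 0.84 ± 0.16. The other 3 did not pass without single libraries: *Kdm1a* (0.59) without unstimulated b (0.50) or both 3 (0.36), *Nedd4* (0.39) without unstimulated b (0.30) or both 1 (0.30), and *Vcp* (0.30) without unstimulated a (0.27) or both 1 (0.28). Of the 11 LPS and NF-κB genes 6 rose and 5 did not pass (median 1.24), *Il1b* by 4.45 ± 0.23, and of the 7 IL-4 signalling genes 5 rose and 2 did not pass (median 0.54).

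The interaction of IFN-γ and *E. coli* asks whether the combined level differs from the sum of both effects on the log2 scale. *Ifitm1* was at −2.06 ± 0.22 (−2.56 ± 0.22 from corrected counts), that is, its difference with *E. coli* was 3.88 without and 1.82 with IFN-γ. *Ifitm3* was at 0.76 ± 0.19 (1.01 ± 0.17 corrected) and *Ifitm6* at 2.75 ± 0.59, its IFN-γ level of 1.09 CPM standing against 6.24 CPM with both; without IFN-γ 2 it was at 3.56. *Ifitm2* was at 0.25 ± 0.21.

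Of all genes 4.62% had an interaction that was called, 457 genes, which became 266 without unstimulated a, 286 and 270 without *E. coli* 1 and 2, and 294 without IFN-γ with *E. coli* 2. Among the other interferon genes, 7 of the 26 antiviral effectors had a positive interaction and 19 did not pass (median 0.54 against 0.004 over all genes), for example *Ifit2* (1.33 ± 0.25) and *Isg20*, an exonuclease (0.86 ± 0.15); *Mx1* (1.12) did not pass without 7 and *Ifih1* (0.84) without 5 of the 12 libraries left out in turn. Of the 12 signalling genes 3 were positive, among them *Stat2* (1.05 ± 0.16) and *Irf1* (0.71 ± 0.14), 1 was negative, *Socs1* (−0.81 ± 0.17), and 8 did not pass. Of the 11 LPS and NF-κB genes 1 was positive, *Nfkb1* (0.74 ± 0.15), 1 was negative, the LPS receptor *Tlr4* (−1.58 ± 0.25), and 9 did not pass. Of the 7 IL-4 signalling genes 3 were negative, of which *Il13ra1* (−1.34) did not pass without 7 libraries in turn, and 4 did not pass, and all 8 partners and modifiers did not pass.

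The comparisons between stimulated groups are differences of the values already given, so for the 4 genes they are a description too. IFN-γ with *E. coli* against IFN-γ asked what bacteria add to the interferon. *Ifitm1* stood 1.82 ± 0.15 higher on the log2 scale (2.62 ± 0.16 from corrected counts), *Ifitm2* 1.94 ± 0.16, *Ifitm3* 0.74 ± 0.13 (1.09 ± 0.12 from corrected counts) and *Ifitm6* 2.42 ± 0.51 (3.26 without IFN-γ 2). The groups did not overlap in any of the 4 genes, beside 28.1% of all genes. For *Ifitm6*, 30 against 6 summed counts gave a ratio of 5.59 (counting interval 2.29 to 16.4).

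IFN-γ with *E. coli* against *E. coli* asked what the interferon adds to bacteria. *Ifitm3* stood 0.62 ± 0.13 higher (0.63 ± 0.12 from corrected counts). *Ifitm1* stood 0.49 ± 0.15 higher on deposited counts, but from corrected counts its difference was 0.16 ± 0.15 and the groups overlapped. *Ifitm2* was at 0.16 ± 0.14 and *Ifitm6* at −0.12 ± 0.34, the latter turning sign without *E. coli* 3 (0.0186) or IFN-γ with *E. coli* 1 (0.0023). On deposited counts the groups did not overlap in 2 of the 4 genes, *Ifitm1* and *Ifitm3*, beside 44.7% of all genes.

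IFN-γ against *E. coli* set the single stimuli side by side. *Ifitm1* was lower with IFN-γ by a log2 fold change of −1.34 ± 0.15 (−2.46 ± 0.16 from corrected counts). *Ifitm2* was lower as well, at −1.77 ± 0.15, and so was *Ifitm6*, at −2.53 ± 0.47 (−3.37 without IFN-γ 2). *Ifitm3* was at −0.12 ± 0.13 (−0.46 ± 0.12 from corrected counts), and without *E. coli* 3 its sign turned (0.0202). The groups did not overlap in 3 of the 4 genes, all but *Ifitm3*, beside 42.8% of all genes.

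**Figure D4:**
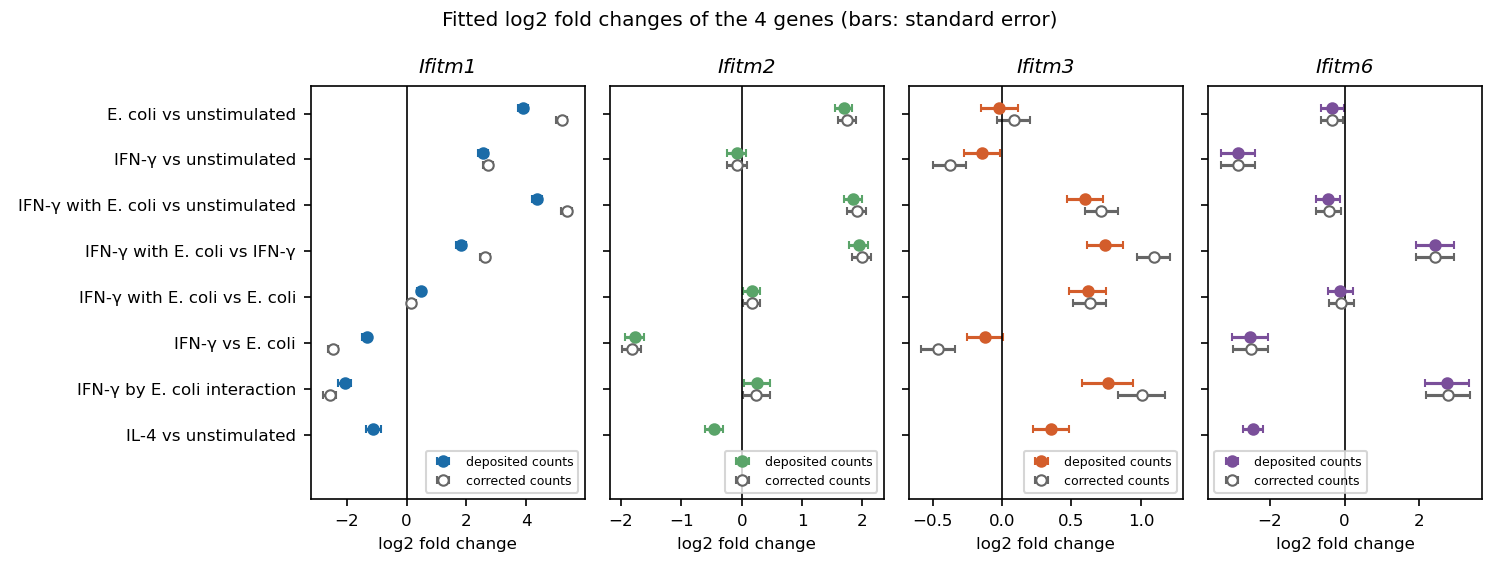
Log2 fold change of each gene in the 8 comparisons (points) with its standard error (horizontal bars), from deposited counts (filled) and corrected counts (open, 12 libraries only); each panel has its own axis. *Ifitm1* is at 2.54 or more in the 3 comparisons of the 12 libraries with unstimulated cells and at −1.11 with IL-4, *Ifitm3* with *E. coli* turns from −0.02 to 0.08 with the corrected counts, and *Ifitm6* is at −2.86 with IFN-γ and −2.44 with IL-4.

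The other interferon genes were tested between the same stimulated groups. With IFN-γ and *E. coli* against *E. coli*, where 32.8% of all genes were called, 16 of the 26 antiviral effectors rose, 1 fell, *Ch25h*, and 9 did not pass (median 0.69 against −0.02); *Ifit2* rose by 2.31 ± 0.19 and *Samhd1* by 1.23 ± 0.13. Of the 12 signalling genes 5 rose, 1 fell and 6 did not pass, *Irf1* by 2.80 ± 0.11. Of the 8 partners and modifiers *Fyn* rose (1.60 ± 0.34), *Nedd4* fell (−0.58 ± 0.13) and 6 did not pass. IFN-γ with *E. coli* against IFN-γ had 12.2% of all genes called, 1209 genes, which became 740 without IFN-γ 1 and 773 without IFN-γ with *E. coli* 2. Here 2 of the antiviral effectors rose, 2 fell and 22 did not pass (median 0.05), but without IFN-γ 1 *Isg15* (0.52), *Isg20* (0.32) and *Apobec3* (−0.43) did not pass, nor did *Isg20* without 4 other libraries in turn; the 12 signalling genes all did not pass, and of the partners *Nedd4* rose (0.64 ± 0.14) and *Setd7* fell (−0.64 ± 0.16), the latter not without IFN-γ 1 (−0.54). Of the 11 LPS and NF-κB genes 7 rose and 1 fell in that comparison, *Il1b* by 3.43 ± 0.21. In IFN-γ against *E. coli* 25.5% of all genes were called; 15 antiviral effectors rose, 1 fell and 10 did not pass (median 0.63), and of the partners *Fyn* (1.52 ± 0.33) and *Setd7* (0.60 ± 0.16) rose, *Nedd4* fell by 1.22 ± 0.13 and 5 did not pass.

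The IL-4 comparison asked for the response to a type 2 cytokine. *Ifitm6* stood 5.43-fold lower (−2.44 ± 0.27) and *Ifitm1* 2.16-fold lower (−1.11 ± 0.24). *Ifitm2* was at −0.46 ± 0.16 and *Ifitm3* at 0.35 ± 0.13. The groups did not overlap in any of the 4 genes, beside 31.3% of the 10556 genes tested. For *Ifitm6*, 211 summed counts against 39 gave a ratio of 5.48 (counting interval 3.88 to 7.93). Without unstimulated e the difference in *Ifitm1* was −0.72.

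Marker genes of other cells are given beside *Ifitm6* in the IL-4 libraries. The neutrophil sum, with 10 of 10 markers above 3 counts in some library of the set and none at 0, was 2005, 1953 and 1696 CPM in unstimulated d, e and f and 809, 838 and 777 CPM with IL-4. *Retnlg* was its most abundant gene, at 1855 ± 172 and 755 ± 43.6 CPM, while *Mmp8* was at 8.33 and 2.76 CPM, *Cxcr2* at 3.76 and 32.1 CPM and *Ly6g* at 2.26 and 3.21 CPM. The monocyte and macrophage sum, with 8 of 9 above 3 counts, was 23540.0, 24515 and 23094 against 23759, 24776 and 23401 CPM, led by *Ly6c2*, while *Marco*, a macrophage scavenger receptor, was at 195 and 28.6 CPM. *Csf1r* was lower with IL-4 too, at 418 and 261 CPM, as was *Mertk* at 6.97 and 5.11 CPM. In the other direction went *Timd4* (61.3 and 88.4 CPM), *Gata6* (10.8 and 16.6) and *Ccr2* (3.95 and 6.06). B cell markers summed to 8.49 and 23.3 CPM and mast cell markers to 7.32 and 15.2 CPM. The part of such cells in the *Ifitm6* values was not tested.

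With IL-4 10.3% of all genes were called, 1089 genes, which became 483, 495 and 515 without IL-4 1, 2 and 3. Of the 26 antiviral effectors 12 rose and 14 did not pass (median 0.37 against 0.0006 over all genes), among them *Ch25h* (2.21 ± 0.18), *Ifih1*, a sensor of viral RNA (0.89 ± 0.15), and *Apobec3* (0.89 ± 0.17); *Ifih1* did not pass with all 6 unstimulated libraries as 1 group (0.49), nor *Eif2ak2* (1.08) without any 1 of the IL-4 libraries. Of the 12 signalling genes 6 rose and 6 did not pass (median 0.48), with *Socs1* at 1.52 ± 0.13, *Irf1* at 0.97 ± 0.12 and *Stat2* at 0.78 ± 0.11. All 8 partners and modifiers did not pass (median −0.02). Of the 11 LPS and NF-κB genes 4 rose, 1 fell and 6 did not pass. Of those called, *Nfkb1* (0.64) and *Nfkbia* (1.02) did not pass without IL-4 1 or without IL-4 2. *Nfkb1* was also lost with all 6 unstimulated libraries as 1 group (0.27). *Tnf*, the gene that fell (−1.12), did not pass without unstimulated d or without any 1 of the IL-4 libraries. Of the 7 IL-4 signalling genes 2 rose, *Socs1* and *Cish* (0.54 ± 0.14), and 5 did not pass; *Cish* did not pass without any 1 of the IL-4 libraries (0.58, 0.47 and 0.57) or without unstimulated d (0.50) or f (0.54), and turned sign with all 6 unstimulated libraries as 1 group (−0.64).

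The genes most like each member were taken by Pearson's r of log2 CPM over the 12 libraries, as a description, since all points share their libraries and depths. Deposited counts compress the profiles of *Ifitm1* and *Ifitm3* near the ceiling. From corrected counts the 5 genes most like *Ifitm1* kept 2 and those most like *Ifitm3* only 1 of the genes below, while *Ifitm2* and *Ifitm6* kept all 5. *Ifitm1* was most like *Agpat5* (r = 0.989), *Upp1* (0.988), *Acpp* (0.986), *Olr1* (0.983) and *Tdg* (0.979). *Agpat5*, an acyltransferase of lipid synthesis, had means of 100.5 CPM unstimulated, 438 with *E. coli*, 269 with IFN-γ alone and 673 in the combination. *Ifitm2* was most like *Cxcl5* (0.993), *Prkch* (0.987), *Cxcl1* (0.986), *Rilpl2* (0.982) and *Dgat2* (0.980). *Cxcl1*, a chemokine for neutrophils, had means of 60.1, 359.8, 39.8 and 645 CPM in the same order.

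*Ifitm3* was most like *Isg15*, a ubiquitin-like protein induced by interferon (0.907, or 0.821 and rank 30 from corrected counts; 809, 733, 830.3 and 1194 CPM), followed by *Ets2* (0.884), *H3f3b* (0.881), *mt-Nd4l* (0.860) and *Atp6v1d* (0.858). *Ifitm6* was most like *Ccdc66* (0.909), *Tmem126a* (0.906), *Hacd3* (0.900), *Siglece* (0.891) and *Ccnd2* (0.889). *Siglece*, an inhibitory lectin receptor of myeloid cells, had means of 46.7, 57.6, 6.51 and 25.8 CPM. Several of these, such as *Tdg*, *H3f3b*, *mt-Nd4l*, *Tmem126a* and *Isg15*, have near-identical copies, and *Agpat5*, *Ccdc66*, *Tdg* and *Ccnd2* overlap other genes, so their counts are uncertain. Between the members r was 0.814 for *Ifitm1* and *Ifitm2*, 0.638 for *Ifitm2* and *Ifitm3*, 0.495 for *Ifitm1* and *Ifitm3*, 0.447 for *Ifitm2* and *Ifitm6*, 0.337 for *Ifitm3* and *Ifitm6*, and −0.0979 for *Ifitm1* and *Ifitm6*. From corrected counts these were 0.865, 0.786, 0.511, 0.447, 0.590 and 0.00664, the last with its sign turned.

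Position was compared as a feature that the choice of genes did not use. Within 100 kb on either side of the 4 genes 20 other genes are annotated, of which 6 could be tested: *Bet1l*, *Ric8a*, *Sirt3*, *Psmd13*, *Pgghg* and *Pkp3*. None of them rose in any of the 8 comparisons. With IFN-γ and *E. coli* together, where 49% of all genes were called, 4 fell (median of the 6 −0.77 against −0.04 over all genes), the mitochondrial deacetylase *Sirt3* by 1.78 ± 0.35, the desmosomal *Pkp3* and the glycosidase *Pgghg* each by 1.08 (± 0.28 and ± 0.24) and *Ric8a*, a chaperone of G proteins, by 0.47 ± 0.13, where *Ifitm1*, *Ifitm2* and *Ifitm3* were higher. With *E. coli* 4 and with IFN-γ 3 of the 6 fell (medians −0.59 and −0.43), beside 30.2% and 31.6% of all genes called, but *Sirt3* with *E. coli* did not pass without *E. coli* 1 (−0.90) or unstimulated a (−0.83), and *Ric8a* with IFN-γ not without unstimulated a (−0.41), unstimulated b (−0.33), IFN-γ 2 (−0.30) or IFN-γ 3 (−0.40). With *E. coli*, *Ric8a* was lost without unstimulated b (−0.36) or *E. coli* 2 (−0.33), *Pgghg* without *E. coli* 1 (−0.62) and *Pkp3* without unstimulated a (−0.70), *E. coli* 1 (−0.81) or *E. coli* 2 (−0.66). With IL-4 all 6 did not pass. With all 6 unstimulated libraries as 1 group *Ric8a* (−0.22) and *Sirt3* (−1.32) with both stimuli did not pass, nor did *Ric8a*, *Sirt3* and *Pgghg* with *E. coli* or with IFN-γ. *Bet1l*, *Ric8a*, *Sirt3* and *Psmd13* share exon positions on opposite strands, and since the strand setting of the counting was not stated, their reads cannot be told apart.

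The promoters of the 4 genes are shown because these neighbours carry a family name for interferon induction and yet differed with IFN-γ. Of the 4 genes 4 matched RefSeq, and each sequence runs from 250 bases before to 50 bases after the RefSeq start on GRCm38.p6, read on the gene's strand: chr7:140967826-140968125 (plus) for *Ifitm1*, chr7:140955912-140956211 (minus) for *Ifitm2*, chr7:141010695-141010994 (minus) for *Ifitm3* and chr7:141016843-141017142 (minus) for *Ifitm6*. The core of the interferon-stimulated response element (ISRE core, GAAANNGAA), the interferon-gamma-activated sequence (GAS, TTCNNNGAA) and the NF-κB consensus were searched on both strands, and matches stand in capitals.
Ifitm1: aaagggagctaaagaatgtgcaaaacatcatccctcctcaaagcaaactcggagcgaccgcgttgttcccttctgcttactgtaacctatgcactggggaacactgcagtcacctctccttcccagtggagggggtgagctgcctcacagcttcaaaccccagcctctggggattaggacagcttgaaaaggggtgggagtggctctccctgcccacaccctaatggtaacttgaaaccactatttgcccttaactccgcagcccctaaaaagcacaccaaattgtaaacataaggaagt
Ifitm2: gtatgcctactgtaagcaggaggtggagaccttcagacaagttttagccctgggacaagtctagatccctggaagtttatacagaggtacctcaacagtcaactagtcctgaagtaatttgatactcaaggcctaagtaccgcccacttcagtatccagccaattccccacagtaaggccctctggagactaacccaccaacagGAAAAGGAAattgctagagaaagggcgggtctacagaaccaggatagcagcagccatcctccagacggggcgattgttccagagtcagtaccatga
Ifitm3: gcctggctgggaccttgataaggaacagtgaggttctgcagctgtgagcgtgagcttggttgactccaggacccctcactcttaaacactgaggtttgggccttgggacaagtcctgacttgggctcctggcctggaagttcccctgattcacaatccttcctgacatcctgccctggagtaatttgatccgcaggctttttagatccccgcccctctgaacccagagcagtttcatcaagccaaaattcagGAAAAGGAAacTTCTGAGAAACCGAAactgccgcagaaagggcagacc
Ifitm6: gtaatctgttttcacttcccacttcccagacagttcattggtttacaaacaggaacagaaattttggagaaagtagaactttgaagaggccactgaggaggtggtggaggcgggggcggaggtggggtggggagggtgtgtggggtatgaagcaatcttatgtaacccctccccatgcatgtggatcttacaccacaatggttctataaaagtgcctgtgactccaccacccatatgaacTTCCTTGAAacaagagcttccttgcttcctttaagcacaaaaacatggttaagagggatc

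*Ifitm3* held 2 ISRE cores, GAAAAGGAA at chr7:141010734-141010742 and GAAACCGAA at chr7:141010717-141010725, and 1 GAS, TTCTGAGAA at chr7:141010723-141010731, which shares 3 bases with the second ISRE core. *Ifitm2* held 1 ISRE core, GAAAAGGAA at chr7:140955999-140956007, and *Ifitm6* 1 GAS, TTCCTTGAA at chr7:141016894-141016902. None of these letters were in the *Ifitm1* window, and the NF-κB consensus was in none of the 4 windows. Of 32544 promoters of the same length, 8.53% held an ISRE core, 8.33% a GAS and 4.53% the NF-κB consensus. All matches in *Ifitm3* lay after the RefSeq start, the ISRE cores at positions 3 and 20 and the GAS at 14. The matches in *Ifitm2* (position −46) and *Ifitm6* (−10) lay before it. The RefSeq starts lay 26 bases inside the annotated gene used for counting for *Ifitm2* and *Ifitm3*, but 855 bases inside for *Ifitm1* and 1032 for *Ifitm6*, so other transcript starts of these genes are not covered. A match is a description of the letters and not of binding.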

How the data were processed

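The authors deposited raw counts per Ensembl gene from CEL-Seq2 libraries. Their notes and methods name TopHat2 2.1.0 (unique mapping to GRCm38), HTSeq 0.6.1 in union mode, fastp 0.20.1 and STAR 2.7.2a; for which libraries the last 2 were used, the strand setting and the collapsing of molecular identifiers were not stated. Lines that name no gene, 21.1% to 39.4% of the counts in the 12 libraries and 0% in the 6, were left out. Symbols came from GENCODE M21, which held 98.4% of 55029 and 99.9% of 54232 IDs.

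Genes passing filterByExpr were fitted with edgeR 4.0.16 (R 4.3.3) by quasi-likelihood with TMM scaling, in 1 fit of 12 libraries (9883 genes; biological coefficient of variation 0.118) and 1 of 6 (10556 genes; 0.182), each stimulus against the unstimulated libraries of its own set. Calls were Benjamini-Hochberg adjusted p under 0.05 over all genes tested. For the 4 members no test is given, since the comparisons between stimulated groups are differences of the values that chose them. Standard errors were taken from the log2 fold change and its F statistic and are approximate. The code was tested on simulated data. Named genes were the 4 members, other Ifitm genes, tested genes within 100 kb, the 5 genes most like each member, and from 5 pathway lists up to 4 called genes with the largest changes, plus all IFITM partners and modifiers; not every such gene is printed, and 1 gene of the signalling list is not reported here. Members and lists were chosen with earlier results of these data known. Copies were searched with BLAST 2.17.0 (at least 95% identity over 200 bases).

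Alternatives were DESeq2 1.42.0 (size factors, and its Wald test), no filter, a filter of 10 counts or more throughout, a required 2-fold change, each library left out in turn, only the 6 libraries compared, a replicate block, all 6 unstimulated libraries as 1 group, *Ifitm1*, *Ifitm2* and *Ifitm3* summed, counts per kilobase, another prior count and, added after seeing the data, counts corrected as n′ = −K ln(1 − n/K), with K the number of sequences of 6 bases. Python 3.11.15, pandas 2.3.3, numpy 2.4.6, SciPy 1.17.1 and matplotlib 3.10.9 were used.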

Additional observations from a re-analysis of the deposited data

Results flagged for a closer look

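The interaction term of the fit compares the difference with *E. coli* between cells without and with IFN-γ. On the log2 scale it was −2.06 for *Ifitm1*, 0.76 for *Ifitm3* and 2.75 for *Ifitm6*. The choice of the genes used these values, so they are a description, and no explanation was weighed.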

How the results depend on the processing

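Fold changes and counts of called genes were judged by direction, side of the threshold and a size within 1.5 times. Without 1 library at a time, 339 of 360 fold changes of the 4 genes and 81 of 90 counts of called genes were kept. Of the fold changes 11 reversed, 9 were weaker and 1 was stronger. Under the other settings 239 of 263 and 58 of 68 were kept, and 10 of 40 shares moved by less than 1 SD. Of the lists of most alike genes, those of *Ifitm1*, *Ifitm3* and *Ifitm6* were kept with a prior count of 0.5, and that of *Ifitm2* kept 4 of 5, *Ccl4* replacing *Dgat2*; from corrected counts *Ifitm1* kept 2 of 5 and *Ifitm3* 1 of 5, *Saa3* (r = 0.920) then being most like *Ifitm3*, and *Ifitm2* and *Ifitm6* kept theirs. These comparisons of settings are no test of the 4 genes. For changes under the settings below, the cause was not tested unless the setting itself gives it. Depth limits *Ifitm6* most, which held 1 to 26 counts in the 12 libraries.

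With a 2-fold change required, which leaves fewer calls by construction, called genes numbered 1023 for *E. coli*, 1187 for IFN-γ, 2210 for both, 404 for both against IFN-γ, 1325 for both against *E. coli*, 1027 for IFN-γ against *E. coli*, 245 for the interaction and 478 for IL-4; *Ifitm3* with both (0.60), with both against IFN-γ (0.74), with both against *E. coli* (0.62) and in the interaction (0.76) and *Ifitm1* with both against *E. coli* (0.49) lie below that size. Without a filter on low counts 1634 genes were called with IL-4 and *Ifitm3* with *E. coli* was at 0.0193. In only the 6 libraries compared *Ifitm3* with *E. coli* was at 0.0056. With all 6 unstimulated libraries as 1 group, which sets libraries with the ceiling against libraries without it, 1662 genes were called with IL-4, 41.6% of them higher against 57.9% in the fit used; *Ifitm3* with both was at 0.30 and *Ifitm1* with IL-4 at −0.68, nearer 0 than in the fit used, and *Ifitm6* with both at −1.07 and *Ifitm3* with IL-4 at 0.66, further from 0, as were *Ifitm6* with *E. coli* (−0.98) and IFN-γ (−3.53), *Ifitm2* with IFN-γ (−0.67) and *Ifitm3* with *E. coli* (−0.36) and IFN-γ (−0.46). *Ifitm2* with *E. coli* (1.09), both (1.29) and IL-4 (−0.02), *Ifitm1* with *E. coli* (3.30), IFN-γ (1.98) and both (3.82) and *Ifitm6* with IL-4 (−1.99) were nearer 0. In that fit *Cd14* with IFN-γ (−0.23), *Cish* with IL-4 (−0.64) and *Vapa* with *E. coli* (−0.00246) also turned sign.

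From corrected counts *Ifitm3* with *E. coli* was at 0.08, *Ifitm3* with IFN-γ at −0.38 and against *E. coli* at −0.46, and *Ifitm1* with both against *E. coli* at 0.16. With *Ifitm1*, *Ifitm2* and *Ifitm3* summed, where *Ifitm3* and *Ifitm1* dominate by construction, the sum stood at 1.08 with *E. coli* (*Ifitm3* alone was below 0), 0.35 with IFN-γ (*Ifitm2* and *Ifitm3* below 0), 0.52 with both against *E. coli* (*Ifitm2* alone 0.16), −0.73 with IFN-γ against *E. coli* (*Ifitm3* alone −0.12), 0.17 in the interaction (*Ifitm1* below 0) and 0.23 with IL-4 (*Ifitm1* and *Ifitm2* below 0).

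Replicate numbers did not pair the stimulated libraries, since the correlations of same-numbered deviations ran from −0.0450 to 0.331 and were not all above 0.1 in any comparison. The fit with the replicate block tested 9456 genes in place of 9883, so its counts differ by more than the block. It called 1430 genes for both against IFN-γ, 3447 for both against *E. coli* and 2750 for IFN-γ against *E. coli*. With the block *Ifitm1*, *Ifitm2*, *Ifitm3* and *Ifitm6* stood at 1.82, 1.92, 0.74 and 2.40 for both against IFN-γ, at 0.48, 0.16, 0.62 and −0.14 for both against *E. coli* and at −1.34, −1.76, −0.12 and −2.54 for IFN-γ against *E. coli*.

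Shares per kilobase moved for *Ifitm1* to 4.78% (a to c), 40.4% (*E. coli*), 24.3% (IFN-γ), 39.1% (both) and 2.38% (IL-4), for *Ifitm2* to 8.23% (*E. coli*), 3.70% (IFN-γ) and 6.39% (both), for *Ifitm3* to 90.2%, 51.1%, 71.9%, 54.4% and 94.0% (a to c, *E. coli*, IFN-γ, both, IL-4) and for *Ifitm6* to 0.497% (a to c), 0.666% (d to f) and 0.103% (IL-4). From corrected counts they moved for *Ifitm1* to 5.11%, 63.3% and 56.1% (a to c, *E. coli*, both), for *Ifitm2* to 2.78%, 3.22%, 2.50% and 2.84% and for *Ifitm3* to 91.7%, 33.4%, 66.3% and 41.0% (a to c, *E. coli*, IFN-γ, both) and for *Ifitm6* to 0.420%, 0.116% and 0.0838% (a to c, *E. coli*, both).

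Leaving out 1 library at a time, called genes ranged from 2160 to 3392 for *E. coli*, 2220 to 3487 for IFN-γ, 4223 to 5001 for both, 740 to 1234 for both against IFN-γ, 2519 to 3315 for both against *E. coli*, 1983 to 2809 for IFN-γ against *E. coli*, 266 to 562 for the interaction and 483 to 1394 for IL-4. In the order *E. coli*, IFN-γ, both, both against IFN-γ, both against *E. coli*, IFN-γ against *E. coli*, interaction and IL-4, *Ifitm1* ranged from 3.74 to 4.05, 2.41 to 2.72, 4.22 to 4.54, 1.68 to 1.92, 0.40 to 0.56, −1.43 to −1.19, −2.24 to −1.92 and −1.31 to −0.72. *Ifitm2* ranged from 1.52 to 1.79, −0.13 to 0.02, 1.79 to 1.98, 1.85 to 2.04, 0.07 to 0.34, −1.87 to −1.60, 0.14 to 0.41 and −0.57 to −0.34. *Ifitm3* ranged from −0.16 to 0.11, −0.19 to −0.0065, 0.54 to 0.73, 0.69 to 0.80, 0.52 to 0.76, −0.22 to 0.02, 0.62 to 0.89 and 0.23 to 0.44. *Ifitm6* ranged from −0.46 to −0.22, −3.68 to −2.54, −0.63 to −0.30, 2.098 to 3.26, −0.31 to 0.02, −3.37 to −2.22, 2.42 to 3.56 and −2.57 to −2.37. *Ifitm3* with *E. coli* turned sign without unstimulated b (0.11), *E. coli* 1 (0.03) or 2 (0.08), IFN-γ 2 (0.0013) or 3 (0.0013), or both 1 (0.0015) or 3 (0.0016), *Ifitm2* with IFN-γ without IFN-γ 2 (0.0219), *Ifitm6* with both against *E. coli* without *E. coli* 3 (0.0186) or both 1 (0.0023), and *Ifitm3* with IFN-γ against *E. coli* without *E. coli* 3 (0.0202). Of the 140 calls of other named genes 117 passed without any 1 library; of the 23 that did not, those whose values the report gives are named there. In every other setting 66 of the 140 were called and 74 were lost in some setting, most often with a 2-fold change required or with all 6 unstimulated libraries as 1 group, under which *Pgghg* with IFN-γ (−0.61) and with *E. coli* (−0.48), *Sirt3* with IFN-γ (−0.88) and with *E. coli* (−0.55) and *Ric8a* with IFN-γ (−0.18) and with *E. coli* (−0.22) also did not pass. *Pkp3* with *E. coli* did not pass by the Wald test of DESeq2 (−0.75) or without a filter (−0.72), *Ric8a* with IFN-γ not without a filter (−0.37), and *Vcp* with both not without a filter (0.30) or in only the 6 libraries compared (0.29).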
